A study of Mus musculus with 24 samples.

Results

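These results describe how mouse 3134 cells with little Nipbl answered 2 h of dexamethasone. The 4 libraries that carry the comparison are the 2 titled IPTG.EV.Dex and the 2 titled IPTG.EV.EtOH, chosen by title from the 24 libraries of the series. The 3134 line is a mouse mammary adenocarcinoma line. All cells carried a short hairpin against NIPBL under an IPTG-inducible switch, and the cells described here also carried an empty piggyBac vector. They were grown for 3 days in charcoal-stripped serum with 1 mM IPTG, and 100 nM dexamethasone was given to the treated cells for the last 2 h, with ethanol as the vehicle. Each group has 2 libraries, and ribosomal RNA had been removed from total RNA before sequencing. For comparison, the same treatments were given to empty-vector cells without IPTG and to IPTG cells labelled as carrying wild-type NIPBL, with 4 libraries each. No group received IPTG without the hairpin, so loss of Nipbl and an effect of IPTG or of the hairpin cannot be told apart. The labels call replicates biological but name no separate cultures or clones, and the spread behind the p-values is that of these libraries alone, which may be technical.

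Dexamethasone is a synthetic glucocorticoid. It binds the glucocorticoid receptor, which enters the nucleus and binds DNA at glucocorticoid response elements, pairs of inverted half-sites, near genes it raises. The receptor also lowers inflammatory genes, in part by acting on the transcription factors NF-κB and AP-1. NIPBL and its partner MAU2 load cohesin, a ring of proteins, on DNA, and cohesin extrudes loops that can bring distant enhancers near promoters. The comparison asks what the hormone does when the loader is scarce.

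Nipbl itself was measured at 54.4 and 56.5 CPM (counts scaled to library size) in dexamethasone and at 65.1 and 62.6 CPM in ethanol. The libraries without IPTG held 151 and 154 CPM in dexamethasone and 186 and 177 CPM in ethanol. In IPTG cells labelled as carrying wild-type NIPBL it was at 66.2 and 55.1 CPM in dexamethasone and at 70.4 and 62.7 CPM in ethanol. All IPTG empty-vector libraries lay below all libraries without IPTG, and so did the libraries labelled wild-type NIPBL, whose range overlapped that of the empty vector. The added NIPBL is thus not visible in the counts of this gene, and whether RNA of the construct is counted under it is not given in the sources used here. The hormone difference in IPTG cells did not pass the test (log2 change -0.20, SE 0.10, edgeR adjusted p = 0.134). Mau2 averaged 64.4 ± 0.668 CPM in dexamethasone and 58.7 ± 1.85 CPM in ethanol (SD, n = 2 each), a difference that did not pass (edgeR adjusted p = 0.081). Nr3c1, the gene of the receptor, had 111 and 110.6 CPM in dexamethasone against 180.1 and 182 CPM in ethanol. Its groups did not overlap, and it fell 1.63-fold (log2 change -0.71, SE 0.05, edgeR adjusted p = 1.57e-11).

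The libraries held 50468098 and 49308873 counts in dexamethasone and 38263001 and 32532858 counts in ethanol. The cell type label was set against defining markers. Of 14 luminal mammary epithelial markers, 7 were at 0 in all 4 libraries, and the defining markers Krt18, Epcam and Cdh1 were at or near 0. Others of the list were detected, with Esr1 at 4.34 and 4.23 CPM in dexamethasone and 4.25 and 5.28 CPM in ethanol, Csn3 between 2.44 and 3.00 CPM and Krt8 between 0.48 and 0.706 CPM. Of 8 basal or myoepithelial markers only 1, Krt14, reached 1 CPM in any library. Krt14 lay at 14.9 and 15.6 CPM in dexamethasone and at 14.4 and 14.1 CPM in ethanol. The rest of that list, Krt5 and Trp63 included, stayed at or under 0.278 CPM. The summed fibroblast or mesenchymal markers, led by Vim, reached 7780 and 7140 CPM in dexamethasone and 7260 and 7300.0 CPM in ethanol. That sum was carried by Vim, Col1a2 and Fn1, while Thy1, Dcn and Lum, 3 of the 10 markers, were at 0 in every library and Col3a1 was under 0.1 CPM. None of these lists was detected in full. The summed adipocyte list was 3.05 and 3.21 CPM in dexamethasone and 0.43 and 0.27 CPM in ethanol, nearly all of it Fabp4, while endothelial markers stayed at or under 0.18 CPM. In bulk RNA, fewer cells of a type and less RNA per cell cannot be told apart.

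Most tested members of a list of glucocorticoid-induced genes rose in dexamethasone, and most tested members of a list of inflammatory genes fell. The members of these lists, and of the other lists below, were chosen with earlier results of these data known. More genes rose than fell by at least 2-fold. Of 16934 tested genes, 2900 were higher (17.1%) and 2610 lower (15.4%) in dexamethasone at an edgeR adjusted p under 0.05, together 32.5% of the genes. At least 2-fold changes were 550 higher (3.25%) and 267 lower (1.58%). Of these 2-fold changes, 363 higher and 144 lower were also called without each of the 4 libraries in turn. Genes of low level had more of them. Of the 4234 genes of lowest mean level, at most 0.814 CPM, 6.14% were at least 2-fold higher and 3.05% at least 2-fold lower. At least 4-fold changes were 217 higher and 70 lower. At least 16-fold changes were 61 higher and 8 lower. Among the 12163 protein-coding genes, 318 were at least 2-fold higher and 103 at least 2-fold lower. Processed pseudogenes made up 101 of the 2-fold higher and 46 of the 2-fold lower genes, and their reads can come from near-identical parent genes.

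GC content of the gene moved with the treatment. The mean level of GC-rich genes relative to that of GC-poor genes, centred over the libraries, was 0.26 and 0.26 log2 units in the dexamethasone libraries and at -0.17 and -0.14 in the ethanol libraries. Of the 4234 genes with the lowest GC content 3.52% were higher and 36.3% lower, whereas of the 4234 with the highest 34.5% were higher and 5.20% lower. With a smooth trend of GC content and length removed, 1816 genes were higher (10.7%) and 1585 lower (9.36%). Of the 5510 calls 2669 (48.4%) were kept and 364 had the other sign. Of the 817 calls of at least 2-fold, 706 (86.4%) were kept. The names of dexamethasone and ethanol libraries form separate runs, so that the hormone and a batch of libraries cannot be told apart.

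**Figure D1:**
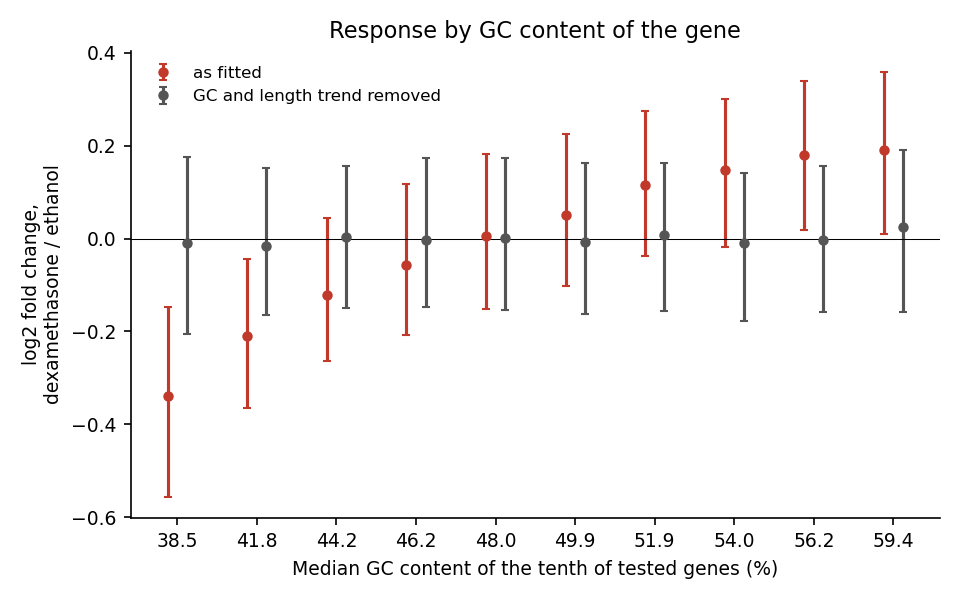
Median log2 fold change of dexamethasone over ethanol in 10 equal groups of the tested genes ordered by GC content (x axis, median GC in percent), with bars from the lower to the upper quartile. As fitted, the median runs from -0.34 at the lowest GC content to 0.19 at the highest, and with the trend removed it lies between -0.02 and 0.03.

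**Figure D2:**
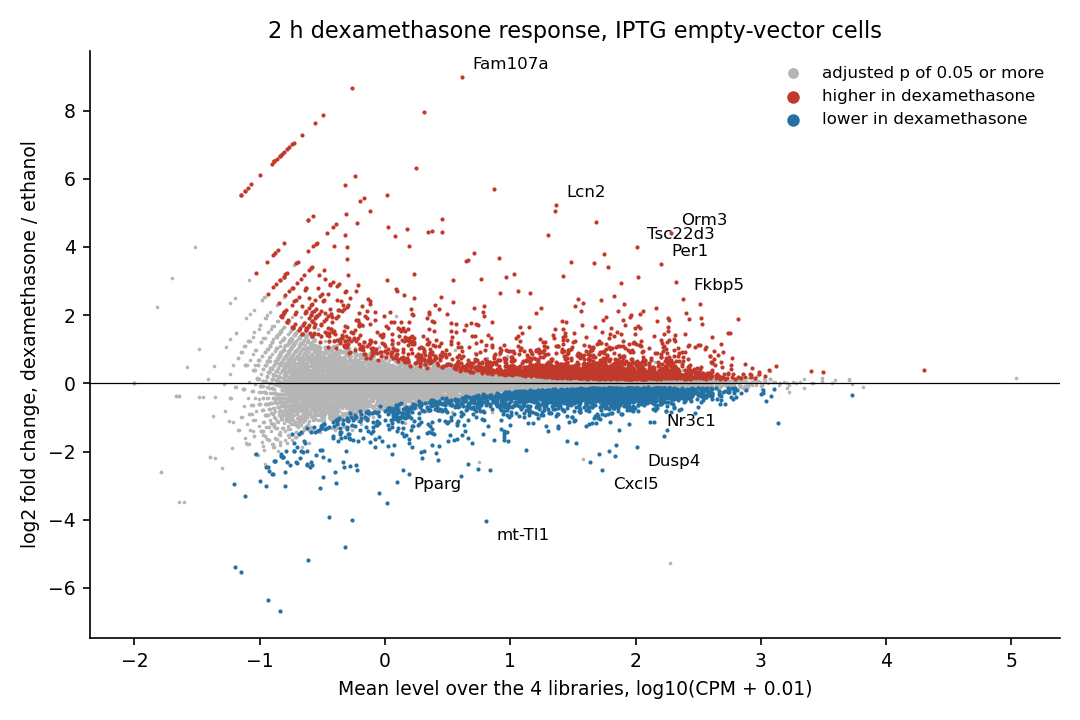
Log2 fold change of dexamethasone over ethanol against mean level on a log10 scale for 16934 genes in IPTG empty-vector cells, with 2900 higher genes in red, 2610 lower genes in blue and the rest in grey. Higher genes reach larger fold changes than lower genes. The slanted rows of points at low level are genes with few counts.

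The genes that rose include textbook targets of the receptor. Tsc22d3 (mm10, chromosome X, 140539528 to 140600659), which encodes the glucocorticoid-induced leucine zipper GILZ, an inhibitor of inflammatory signalling, had 188 and 195 CPM in dexamethasone against 12.4 and 11.7 CPM in ethanol. Both dexamethasone libraries were far above both ethanol libraries, and the gene rose 15.8-fold (log2 change 3.98, SE 0.10, edgeR adjusted p = 7.84e-19). Per1 (chromosome 11, 69095217 to 69109960), a repressor of the circadian clock, had 294 and 297 CPM in dexamethasone against 26.6 and 25.8 CPM in ethanol. It rose 11.3-fold with almost no spread between replicates (log2 change 3.50, SE 0.05, edgeR adjusted p = 7.42e-25). Sgk1 (chromosome 10, 21882184 to 21999903), a kinase that promotes sodium uptake in epithelia, had 375 and 376 CPM in dexamethasone against 48.6 and 47.2 CPM in ethanol. The groups did not overlap, and Sgk1 rose 7.84-fold (edgeR adjusted p = 3.91e-22). Fkbp5 (chromosome 17, 28399094 to 28517527), a co-chaperone that dampens the receptor, had 407 and 398 CPM in dexamethasone against 69.4 and 75.1 CPM in ethanol, a 5.57-fold rise (edgeR adjusted p = 2.47e-16). Dusp1, a phosphatase that switches off p38 and JNK, had 177 and 200.4 CPM in dexamethasone against 19.9 and 23.7 CPM in ethanol, and rose 8.68-fold.

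Of the 29 tested members of a list of 33 glucocorticoid-induced genes, 26 rose and 0 fell, against 17.1% higher among all tested genes. The median log2 change was 2.05, against 0.01 over all tested genes, and 22 rose at least 2-fold. All 26 calls were also made without each of the 4 libraries in turn and with the GC and length trend removed. Errfi1, an inhibitor of EGF receptor kinase, rose 7.70-fold, Pdk4, which restrains glucose oxidation, 6.33-fold, and Cebpb, a transcription factor of the acute phase, 2.65-fold. Klf9 rose 1.63-fold, Irs2, an adaptor of the insulin receptor, 1.65-fold and Lfng, a glycosyltransferase that modifies Notch, 1.48-fold. Bcl6, Angptl4 and Cavin2 did not pass, with log2 changes of 0.13, -0.03 and -0.10. Ampd3 and Glul overlap another gene on the same strand, so their counts are uncertain. Zbtb16, Mt2, Tat and Hsd11b1 of the list were too low to be tested.

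Some of these genes have a match to the element that the receptor binds just before their start, and 3 such stretches are shown. The motif searched was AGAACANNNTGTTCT, which reads the same on both strands, with at most 2 mismatches over its 12 half-site bases, in the 250 bases before each RefSeq gene start. Each line gives 200 bases of GRCm38.p6 on the strand of the gene, 5′ to 3′, from base 250 to base 51 before the start, with the match in capitals.
Sgk1, chr10:21993640-21993839, plus strand, 0 mismatches: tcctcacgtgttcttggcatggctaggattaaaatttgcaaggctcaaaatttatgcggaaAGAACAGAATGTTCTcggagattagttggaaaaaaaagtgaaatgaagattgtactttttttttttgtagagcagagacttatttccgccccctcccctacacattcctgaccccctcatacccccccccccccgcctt
Fam107a, chr14:8309830-8310029, minus strand, 2 mismatches: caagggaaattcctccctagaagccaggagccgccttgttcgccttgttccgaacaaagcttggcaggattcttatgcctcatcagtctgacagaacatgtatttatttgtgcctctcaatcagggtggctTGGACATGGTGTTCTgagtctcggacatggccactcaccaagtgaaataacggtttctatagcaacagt
Slc10a6, chr5:103629454-103629653, minus strand, 2 mismatches: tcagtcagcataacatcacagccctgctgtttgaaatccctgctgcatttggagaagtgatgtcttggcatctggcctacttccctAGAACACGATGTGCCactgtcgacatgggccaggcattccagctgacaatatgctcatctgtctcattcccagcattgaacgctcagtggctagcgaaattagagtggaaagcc

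The Sgk1 match is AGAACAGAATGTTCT, from base 189 to base 175 before the start of 1 of its transcripts, and the window before another start held a match with 2 mismatches. Of the 10231 tested genes with a RefSeq promoter, 114 (1.11%) held a match, and 0.958% of the 13046 windows did. Among all genes called higher it was 25 of 2090 (1.20%) and among all called lower 20 of 1799 (1.11%), near the share of all tested genes. Among genes at least 2-fold higher it was 10 of 265 (3.77%), among those at least 4-fold higher 7 of 109 (6.42%), and among those at least 2-fold lower 2 of 81 (2.47%). The windows before Per1 and Tsc22d3 held none. A match is a description of the letters in the window and was not tested for binding.

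Fam107a, an actin-associated gene raised by stress hormones, had 395 and 421 counts in dexamethasone against 1 and 0 counts in ethanol. The ratio scaled to library size was 600.0 with a 95% exact binomial interval of 107 to 23700, which covers counting error only. With ethanol set to a floor of 3 counts over the group the ratio was 200. Slc10a6, a carrier of sulfated steroids, had 2.57 and 3.31 CPM in dexamethasone against 0.177 and 0.18 CPM in ethanol, and rose 16.2-fold (edgeR adjusted p = 1.2e-09). Both genes were near silent in ethanol. Sult1a1, a sulfotransferase, had 24 and 38 counts in dexamethasone and none in ethanol. With ethanol set to a floor of 3 counts over the group the ratio was 15.2, which is not a lower bound. Sult1a1 had a 95% exact binomial interval that started below that ratio. Its promoter match lies from base 34 to base 20 before the start and reads AGAACAGCCAGTCCT, with 2 mismatches.

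Other genes among the largest rises have varied functions. Lcn2 (chromosome 2, 32384633 to 32388252), a lipocalin that binds bacterial siderophores, had 39.0 and 51.4 CPM in dexamethasone against 0.987 and 1.47 CPM in ethanol, and rose 37.2-fold (edgeR adjusted p = 3.48e-08). Its lower dexamethasone library was far above both ethanol libraries. Suox, the mitochondrial enzyme that oxidises sulfite, had 114 and 107 CPM in dexamethasone against 10.2 and 10.7 CPM in ethanol, and rose 10.6-fold. Spsb1, an adaptor of a ubiquitin ligase, rose 13.9-fold, the arrestin-like gene Arrdc2 11.6-fold, the small GTPase gene Arl4d 8.85-fold and the focal adhesion gene Lims2 9.19-fold. At lower levels, the phagocytic receptor kinase gene Mertk rose 20.2-fold, Greb1, known as an oestrogen-induced gene, 21.9-fold, the cytochrome gene Cyb561 21.5-fold, Prr15l 28.5-fold and the carrier gene Slc25a48 23.8-fold. Vmn1r40, a vomeronasal receptor gene of a large family of near-identical copies, had 200 counts in dexamethasone and 3 in ethanol, and its count is uncertain. All 40 genes that the naming rule picked, 20 higher and 20 lower, were called without each of the 4 libraries in turn. Prr15l, Greb1, Cyb561, Spsb1, Lims2, Phlda1 and Gas1 overlap a gene on the other strand, and the strand setting of the counting is not given in the sources used here.

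**Figure D3:**
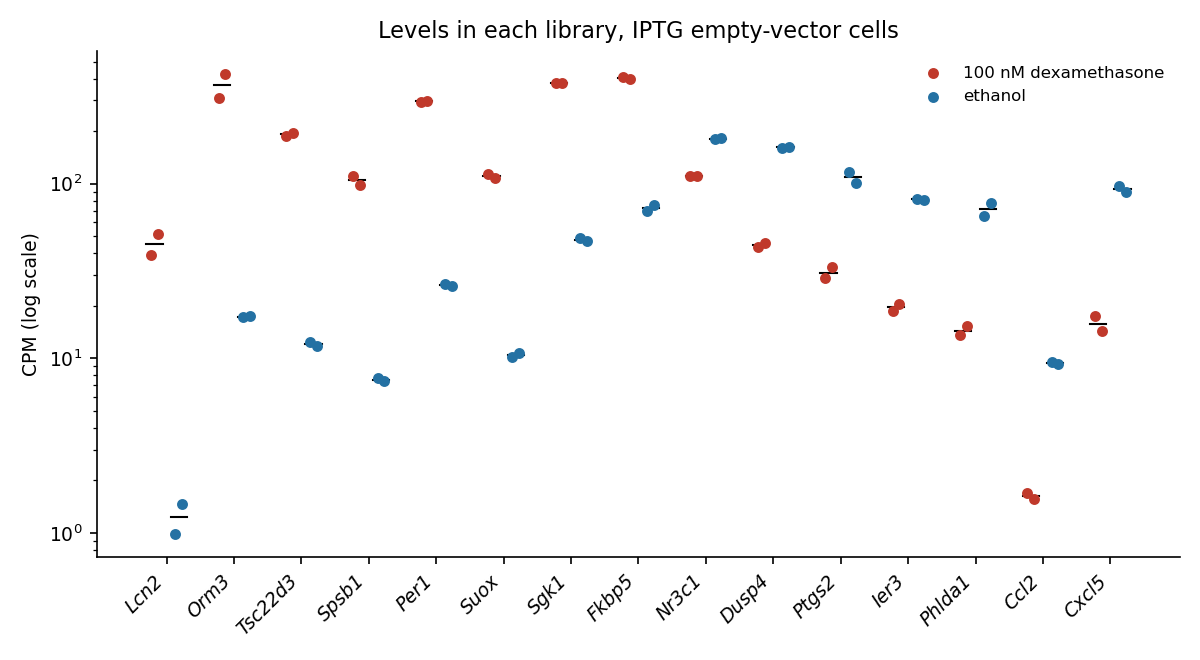
Level in each library, in CPM on a log scale, of 15 genes in IPTG empty-vector cells, with dexamethasone in red on the left and ethanol in blue on the right, and the mean of 2 libraries as a bar. No gene shown has overlapping groups, and Lcn2 lies at 39.0 CPM or more in dexamethasone and at 1.47 CPM or less in ethanol.

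Acute phase genes encode proteins that the liver and epithelia secrete in inflammation. Of 11 tested members 6 rose and 2 fell, which is 54.5% and 18.2%, against 17.1% and 15.4% of all genes. The count of falls was 1 without replicate 1 in dexamethasone or replicate 2 in ethanol. Orm3, an orosomucoid that carries lipophilic drugs in plasma, had 308 and 426 CPM in dexamethasone against 17.3 and 17.4 CPM in ethanol, and rose 21.2-fold (edgeR adjusted p = 1.86e-11). Its neighbours Orm1 and Orm2 rose 12.8-fold and 3.94-fold. The 3 genes are close copies, so reads may be divided between them. Il6ra, the receptor of interleukin 6, rose 3.54-fold, whereas Il1r1 and Osmr, receptors of interleukin 1 and oncostatin M, were lower by 0.54 and 0.33 on the log2 scale. Of 5 metallothionein and zinc genes 2 rose, namely Mt1, which binds zinc and copper, 4.11-fold, and the zinc importer gene Slc39a14. Slc39a14 had 418 and 423 CPM in dexamethasone against 111 and 115 CPM in ethanol, and rose 3.72-fold.

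Inflammatory genes moved down. Of 22 list members only 11 were high enough to be tested, and of these 9 fell and 0 rose, against 15.4% lower among all genes, with a median log2 change of -1.65. Of the 9 falls 8 were called without each of the 4 libraries in turn, and 8 members fell with the GC and length trend removed. Cxcl5 (chromosome 5, 90759360 to 90761624), a chemokine that attracts neutrophils, had 17.4 and 14.3 CPM in dexamethasone against 96.4 and 89.4 CPM in ethanol. The groups did not overlap, and it fell 5.87-fold (log2 change -2.55, SE 0.21, edgeR adjusted p = 6.39e-07). Ccl2 (chromosome 11, 82035571 to 82037453), a chemoattractant of monocytes, had 1.70 and 1.57 CPM in dexamethasone against 9.47 and 9.30 CPM in ethanol, and fell 5.73-fold (edgeR adjusted p = 9.11e-12). Ptgs2, the inducible cyclooxygenase COX-2, had 28.7 and 33.3 CPM in dexamethasone against 117 and 101 CPM in ethanol, and fell 3.52-fold (edgeR adjusted p = 4.59e-14). Cxcl1, Cxcl3 and Ccl7, further chemokine genes, fell 3.14-fold, 5.77-fold and 3.93-fold. Csf1, the macrophage growth factor, fell by 0.77, Vcam1 by 0.53 and Lif by 0.26 on the log2 scale, and Mmp9 and Ccl5 did not pass, with log2 changes of -0.12 and 0.15.

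Other genes among the largest falls have varied functions. Phlda1 (chromosome 10, 111506286 to 111508645), a target of receptor kinase signalling, had 13.6 and 15.2 CPM in dexamethasone against 65.6 and 77.4 CPM in ethanol, and fell 4.96-fold (edgeR adjusted p = 2.2e-12). Ier3, an immediate early gene of stress, had 18.6 and 20.5 CPM in dexamethasone against 82.2 and 81.1 CPM in ethanol, and fell 4.18-fold. Gdnf, a neurotrophic factor, fell 3.89-fold, the cell cycle kinase gene Plk2 3.26-fold, the phosphodiesterase gene Pde4b 3.37-fold and Gas1, a growth arrest gene, 3.37-fold. Pparg, the nuclear receptor of fat cell differentiation, had 0.545 and 0.262 CPM in dexamethasone against 2.61 and 2.10 CPM in ethanol, and fell 5.82-fold, while Fabp4, which it is known to activate, rose 9.28-fold. Some of the picked genes are small RNAs or copies of other genes. The mitochondrial transfer RNA mt-Tl1 had 0.687 and 0.766 CPM in dexamethasone against 16.3 and 7.71 CPM in ethanol, and the ribonuclease P RNA copy Rprl3 fell 4.41-fold. Usp17la and H2-K2 belong to families of close copies, and Amd-ps4 is a pseudogene, so their counts are uncertain.

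Among NF-κB subunits and their inhibitors 6 of 19 rose (31.6%) and 4 fell (21.1%), against 17.1% and 15.4% of all genes. The rises numbered 3 with the GC and length trend removed and 3 without replicate 2 in ethanol. Nfkbia, the inhibitor IκBα, had 77.0 and 82.4 CPM in dexamethasone against 28.3 and 28.1 CPM in ethanol, and rose 2.83-fold (edgeR adjusted p = 7.18e-17). Tnfaip3, a deubiquitinase that ends NF-κB signals, rose by 0.64 on the log2 scale, while the subunit gene Rel fell by 0.49 and the coactivator gene Bcl3 by 0.81. Among phosphatases of MAP kinases, 3 of 10 rose and 3 fell, and all 6 calls were made without each library and with the trend removed. Dusp1 and Dusp4 moved in opposite directions. Dusp4, which acts on ERK in the nucleus, had 43.5 and 45.5 CPM in dexamethasone against 161 and 162 CPM in ethanol, and fell 3.63-fold (edgeR adjusted p = 5.84e-18). Dusp8 fell by 1.43 on the log2 scale and Dusp6, a cytoplasmic ERK phosphatase, rose 1.99-fold.

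The AP-1 family of Fos and Jun proteins had 4 members higher and 4 lower of 11 (36.4% each), against 17.1% and 15.4% of all genes, and 2 higher without replicate 1 in ethanol. Jun averaged 37.6 ± 3.69 CPM in dexamethasone and 69.9 ± 5.43 CPM in ethanol (SD, n = 2 each), with groups that did not overlap, and fell 1.86-fold (edgeR adjusted p = 0.00247). Fosl1 and Fosl2 fell by 0.66 and 0.70 on the log2 scale, whereas Jund rose 1.56-fold and Maff, a small Maf protein, 4.20-fold. Among 17 immediate early genes 3 rose (17.6%) and 4 fell (23.5%), so that the share of rises was near that of all genes. Zfp36, which encodes tristetraprolin, a protein that destabilises cytokine messenger RNAs, had 50.0 and 58.5 CPM in dexamethasone against 11.9 and 10.5 CPM in ethanol, and rose 4.83-fold (edgeR adjusted p = 1.48e-16). Its relative Zfp36l2 rose 2.81-fold, while the third member, Zfp36l1, fell 2.26-fold. Myc, Egr2 and Nr4a1 did not pass, with log2 changes of -0.11, -0.12 and -0.04. Of 12 Kruppel-like factors 4 rose and 6 fell, with Klf10, a TGF-β early gene, 2.49-fold lower and Klf4 lower by 0.85 on the log2 scale. Klf15, a known receptor target, had 40 counts in dexamethasone against 5 in ethanol, a scaled ratio of 5.88 (95% exact binomial interval 2.32 to 19.1).

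Of 21 tested clock genes, Per1 included, 7 rose (33.3%) and 6 fell (28.6%), against 17.1% and 15.4% of all genes. The falls numbered 3 without replicate 1 in dexamethasone or replicate 1 in ethanol, and 2 of them were called without each of the 4 libraries in turn. Nfil3, a repressor of D-box genes, had 92.0 and 87.7 CPM in dexamethasone against 15.7 and 17.5 CPM in ethanol, and rose 5.42-fold (edgeR adjusted p = 2.31e-12). Per2 rose 2.60-fold and Ciart, a repressor of CLOCK and BMAL1, by 0.94 on the log2 scale, and Bhlhe40 fell by 0.40. Arntl, which encodes BMAL1, and Cry1 did not pass, with log2 changes of 0.00 and -0.16. Clock was 0.18 lower on the log2 scale, but it was 0.09 higher with the GC and length trend removed.

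Of 11 SOCS and PIAS genes, which encode inhibitors of cytokine signalling, 6 fell (54.5%) and 2 rose (18.2%), against 15.4% and 17.1% of all genes. The rises numbered 1 without replicate 1 in dexamethasone or replicate 2 in ethanol. Of 11 feedback genes of receptor tyrosine kinases 3 rose and 3 fell. Socs3 had 12.9 and 15.4 CPM in dexamethasone against 29.3 and 37.9 CPM in ethanol, and fell 2.37-fold (edgeR adjusted p = 0.000188). Socs5 fell 2.21-fold, whereas Socs2, an inhibitor of growth hormone signals, had 38.4 and 40.6 CPM in dexamethasone against 12.5 and 13.6 CPM in ethanol, and rose by 1.60 on the log2 scale. Of 8 EGF family genes 5 fell and 1 rose, and the 3 falls of at least 2-fold were the ligand genes Hbegf (3.05-fold), Ereg (2.26-fold) and Areg (2.13-fold). Irs1, the insulin receptor substrate, had 92.3 and 82.1 CPM in dexamethasone against 257 and 248 CPM in ethanol, and fell 2.89-fold (edgeR adjusted p = 2.03e-08). Irs2 moved the other way.

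Of 25 glucose and lipid genes 9 rose (36.0%) and 3 fell, against 17.1% and 15.4% of all genes, and all 9 rises were called without each of the 4 libraries in turn. Foxo3, a transcription factor of starvation, had 86.3 and 88.4 CPM in dexamethasone against 41.8 and 43.7 CPM in ethanol, and rose 2.04-fold. Of 17 genes of mTOR and growth control 10 rose and 2 fell, or 7 and 1 with the trend removed. Ddit4, an inhibitor of mTORC1 known as REDD1, averaged 249 ± 4.05 CPM in dexamethasone and 91.4 ± 5.54 CPM in ethanol (SD, n = 2 each), and rose by 1.45 on the log2 scale. Sesn1 rose by 1.21 and Deptor by 0.45, while Ddit4l fell by 1.49. Of 27 sterol and fatty acid genes 3 rose (11.1%) and 6 fell (22.2%), with Insig1, a brake on sterol synthesis, 1.74-fold lower. Without replicate 1 in dexamethasone 1 of them rose. Of 24 ATF4 and unfolded protein genes 7 rose (29.2%) and 4 fell (16.7%), and the falls numbered 2 without replicate 1 in dexamethasone or with the trend removed. Among them were Herpud1, which acts in endoplasmic reticulum degradation, 2.35-fold higher and Ddit3, which encodes CHOP, 2.12-fold lower.

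Bcl2l1, which encodes the survival protein BCL-XL, had 543 and 516 CPM in dexamethasone against 138 and 144 CPM in ethanol, and rose 3.76-fold (edgeR adjusted p = 1.1e-19). The death genes Bcl2l11 and Bbc3 fell by 0.80 and 0.64 on the log2 scale. In a list of BCL2 family and other apoptosis genes 3 of 14 rose (21.4%) and 7 fell (50.0%), against 17.1% and 15.4% of all genes. The falls numbered 4 without replicate 1 in dexamethasone or replicate 1 in ethanol. The cell cycle inhibitor gene Cdkn1a, which encodes p21, had 203 and 203 CPM in dexamethasone against 80.1 and 74.1 CPM in ethanol, and rose 2.63-fold. Cdkn1b, which encodes p27, had 141 and 138 CPM in dexamethasone against 248 and 247 CPM in ethanol, and fell 1.77-fold (edgeR adjusted p = 2.16e-09). Of 29 cell cycle and replication genes 19 did not pass. The 6 higher (20.7%) and 4 lower (13.8%) were shares near those of all genes, and the higher numbered 2 with the trend removed and 3 without replicate 1 in ethanol. Of 23 p53 targets 6 rose and 9 fell.

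In the plasminogen system 2 of 8 genes rose and 3 fell, or 1 and 3 without replicate 1 in ethanol. Plau, the activator urokinase, fell 5.14-fold and its receptor gene Plaur 1.63-fold. Of 13 Notch genes 5 rose and 3 fell, with Notch4 higher by 2.26 on the log2 scale and Hes1, a Notch target, 2.18-fold lower. Of 27 TGF-β and BMP genes 4 rose (14.8%) and 10 fell (37.0%), against 17.1% and 15.4% of all genes, and 6 fell without replicate 2 in ethanol. Id1, a BMP target, was 2.29-fold higher and Gdf15 2.83-fold lower. Of 23 Wnt genes 4 rose (17.4%) and 8 fell (34.8%), with the ligand gene Wnt10b 3.07-fold higher. The falls numbered 5 without replicate 1 or replicate 2 in dexamethasone and 3 without replicate 2 in ethanol. Thbs1, an adhesive glycoprotein, had 818 and 864 CPM in dexamethasone against 1749 and 2017 CPM in ethanol, and fell 2.24-fold (edgeR adjusted p = 0.000226). Of 16 matrix genes 3 rose (18.8%) and 1 fell (6.25%), and the type IV collagen gene Col4a1 rose 1.43-fold. Of 23 interferon-stimulated genes 3 rose (13.0%) and 5 fell (21.7%), shares near those of all genes, and 3 fell with the trend removed or without replicate 1 in dexamethasone or replicate 2 in ethanol.

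**Figure D4:**
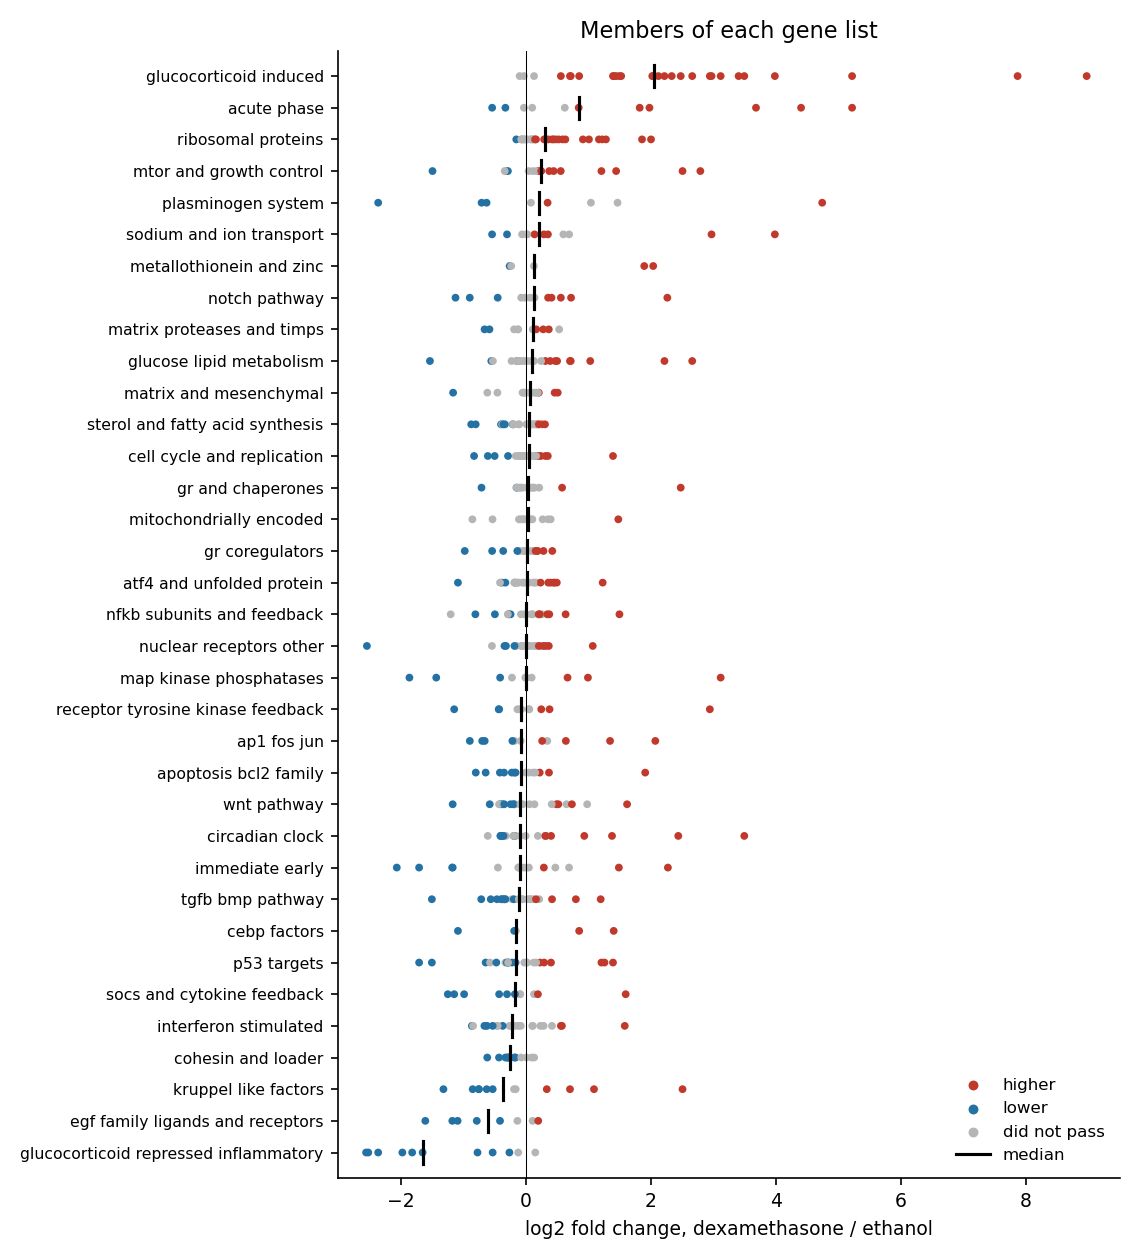
Log2 fold change of dexamethasone over ethanol for each tested member of 35 gene lists, ordered by list median (black bar), with members that rose in red, fell in blue and did not pass in grey. The glucocorticoid-induced list has the highest median, 2.05, and the inflammatory list the lowest, -1.65.

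Of 16 genes of the receptor and its chaperones 3 rose (18.8%) and 2 fell (12.5%), shares near the 17.1% and 15.4% of all genes, and 1 fell when any 1 of the 4 libraries was left out. Among them was Hspa8, higher by 0.58 on the log2 scale. Hsp90aa1 and Fkbp4 did not pass, with log2 changes of -0.10 and 0.07. Of 16 coregulators 4 rose and 4 fell, against 17.1% and 15.4% of all genes, and 1 rose without replicate 1 in dexamethasone or replicate 1 in ethanol. The coactivator gene Ppargc1a fell by 0.98 and Ppargc1b by 0.54 on the log2 scale. Of 20 other nuclear receptors 5 rose and 4 fell, with Vdr, the vitamin D receptor gene, 2.10-fold higher. With the trend removed 3 rose, and without replicate 1 in dexamethasone or replicate 2 in ethanol 2 fell. Of 15 cohesin genes 10 were lower and 0 higher, with Esco2, a cohesin acetyltransferase, 1.53-fold and the subunit gene Stag2 1.35-fold lower. With the GC and length trend removed 1 was lower, Esco2, and Pds5b turned to 0.02 higher on the log2 scale.

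Ribosomal protein genes moved with the treatment as well. Of 30 tested 18 were higher (60.0%) and 1 lower (3.33%), against 17.1% and 15.4% of all genes. With the trend removed 15 were higher and 3 lower, against 10.7% and 9.36% of all genes. Rpl27 had 143 and 152 CPM in dexamethasone against 37.4 and 36.0 CPM in ethanol, and was 4.01-fold higher (edgeR adjusted p = 9.65e-20), and Rps6 was 3.63-fold higher. Rps3 and Rplp0 did not pass, with log2 changes of -0.03 and 0.01. Ribosomal protein genes have many processed pseudogenes, and how reads with several alignments were counted is not given in the sources used here. The mitochondrial share of counts was 1.26% and 1.69% in dexamethasone and 1.71% and 1.30% in ethanol. Of 15 mitochondrially encoded genes in the list 1 was higher (6.67%), the ribosomal RNA mt-Rnr2, and 0 were lower. The list leaves out the transfer RNA mt-Tl1, given above among the largest falls.

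Some genes that changed at least 2-fold lay near each other. Among 304 named protein-coding genes at least 2-fold higher, 36 (11.8%) had another such gene with a start within 100.0 kb and no shared exon, against 6.26% of the 11371 others. Among 92 genes at least 2-fold lower it was 10 (10.9%), against 1.92% of 11583 others. The higher pairs include Bcl2l1 with Id1 (95477 bases apart), Spsb1 with H6pd, H6pd with Gpr157, and Suox with Pmel, beside Orm1, Orm2 and Orm3. The lower pairs include Ccl2 with Ccl7, Cxcl3 with Cxcl5 (26743 bases apart) and Areg with Ereg. Several pairs are members of one gene family, and the neighbour shares were not tested.

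The response in IPTG empty-vector cells was set against that in empty-vector cells without IPTG, from libraries that the 2 responses do not share. Of the 2900 higher genes 2444 (84.3%) were also higher without IPTG, where 3359 of the 16934 tested genes were higher (72.8% shared). Of the 2610 lower genes 2239 (85.8%) were also lower there, out of 3079 (72.7%). Only 3 genes were called in opposite directions. The GC shift described above was also present without IPTG, at 0.29 and 0.23 log2 units in dexamethasone and -0.28 and -0.23 in ethanol. In both states the names of dexamethasone and ethanol libraries form separate runs, so a shared response and a shared batch cannot be told apart. The overlap was not computed with the trend removed. The difference of the responses passed for 29 genes (0.171%), 3 positive and 26 negative, and 20 of the 29 were higher in both states with a smaller rise in IPTG cells. At an unadjusted p under 0.05 there were 857 of the 16934 tested genes, where a share of 0.05 would pass with no difference in any gene.

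Tsc22d1, a relative of GILZ, had 146 and 144 CPM in dexamethasone against 124 and 139 CPM in ethanol in IPTG cells, and its response there did not pass (log2 change 0.14). Without IPTG it had 247 and 241 CPM in dexamethasone against 126 and 133 CPM in ethanol. The response was smaller in IPTG cells by 0.77 on the log2 scale (log2 difference -0.77, SE 0.08, edgeR adjusted p = 4.75e-05). Fkbp5 in IPTG cells had the values given above, and without IPTG it had 698 and 708 CPM in dexamethasone against 80.2 and 87.7 CPM in ethanol, a log2 difference of -0.59 (SE 0.11, edgeR adjusted p = 0.0179). For both genes the ethanol levels of the 2 states were close and the dexamethasone levels apart. Socs2 differed in both treatments, with 48.0 and 45.5 CPM in dexamethasone and 6.42 and 7.41 CPM in ethanol without IPTG, and had a log2 difference of -1.16 (edgeR adjusted p = 0.000268). Suox, 1 of the 3 genes with a positive difference, had 81.2 and 73.2 CPM in dexamethasone against 11.0 and 12.9 CPM in ethanol without IPTG, and its rise was larger in IPTG cells by 0.71 on the log2 scale.

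Further genes with a smaller response in IPTG cells were Sphk1, a sphingosine kinase, with a log2 difference of -0.71, the small GTPase gene Rhob with -0.92, the transcription factor gene Cebpd with -0.97 and Foxo1 with -0.55. The Notch pathway genes Lfng, Notch1 and Jag1 differed by -0.80, -0.78 and -0.55. Notch1 fell in IPTG cells (log2 change -0.45) and rose without IPTG (0.33), and Snx18, a membrane-bending protein gene, likewise had -0.13 and 0.31. Adamts1, a matrix protease gene, had 54.3 and 49.0 CPM in dexamethasone against 80.1 and 83.0 CPM in ethanol in IPTG cells, and 95.8 and 102 CPM against 88.9 and 94.6 CPM without IPTG. Fosl2 fell further in IPTG cells, with a log2 difference of -0.50.

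Over the 29 glucocorticoid-induced genes, 23 had a smaller log2 change in IPTG cells than without IPTG. The median difference over the list was -0.33, against 0.00 over all tested genes. The difference was called for 5 of the 29, against 0.171% of all tested genes. Against wild-type NIPBL 20 of the same 29 genes had a smaller log2 change in empty-vector cells. Their median difference was -0.03, against 0.00 over all tested genes. The share of all tested genes with a smaller log2 change is not given here for either comparison. The list medians were 2.05 in IPTG empty-vector cells, 2.25 with wild-type NIPBL and 2.41 without IPTG. The count of 29 differences depended on the libraries and on the fit. It was 13 and 17 when replicate 1 or 2 of the dexamethasone libraries described here was left out, 9 without replicate 2 of their ethanol libraries, and 13 and 18 without replicates 1 and 2 of no IPTG in ethanol. It was 20 to 24 without each of the other 3 libraries, 62 with DESeq2, 85 with no filter on low counts and 47 in a fit of the compared libraries alone.

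Against IPTG cells with wild-type NIPBL, the difference of the responses passed for 2 genes (0.0118%), Nrip1 and Adamts1. Of the 16934 tested genes 521 had an unadjusted p under 0.05. Nrip1, a corepressor of nuclear receptors, had 52.7 and 52.5 CPM in dexamethasone against 46.0 and 48.3 CPM in ethanol in empty-vector cells. With wild-type NIPBL it had 70.9 and 71.6 CPM in dexamethasone against 46.7 and 45.4 CPM in ethanol. Its response was smaller in empty-vector cells by 0.47 on the log2 scale (log2 difference -0.47, SE 0.07, edgeR adjusted p = 0.0159). Adamts1 averaged 71.9 ± 4.29 CPM in dexamethasone and 66.1 ± 5.64 CPM in ethanol with wild-type NIPBL (SD, n = 2 each), and had a log2 difference of -0.78 (edgeR adjusted p = 0.0159). The empty-vector libraries enter both differences of Adamts1, so these are not independent. The count of 2 was 0 or 1 when either replicate of IPTG empty vector in dexamethasone or ethanol, replicate 2 of wild-type NIPBL in dexamethasone or either of its replicates in ethanol was left out. Of the higher genes 2067 (71.3%) were also higher with wild-type NIPBL, or 82.4% of the 2510 there, and of the lower genes 1961 (75.1%), or 84.8% of 2313. The library names form the same separate runs with wild-type NIPBL, so a shared response and a shared batch cannot be told apart here either.

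**Figure D5:**
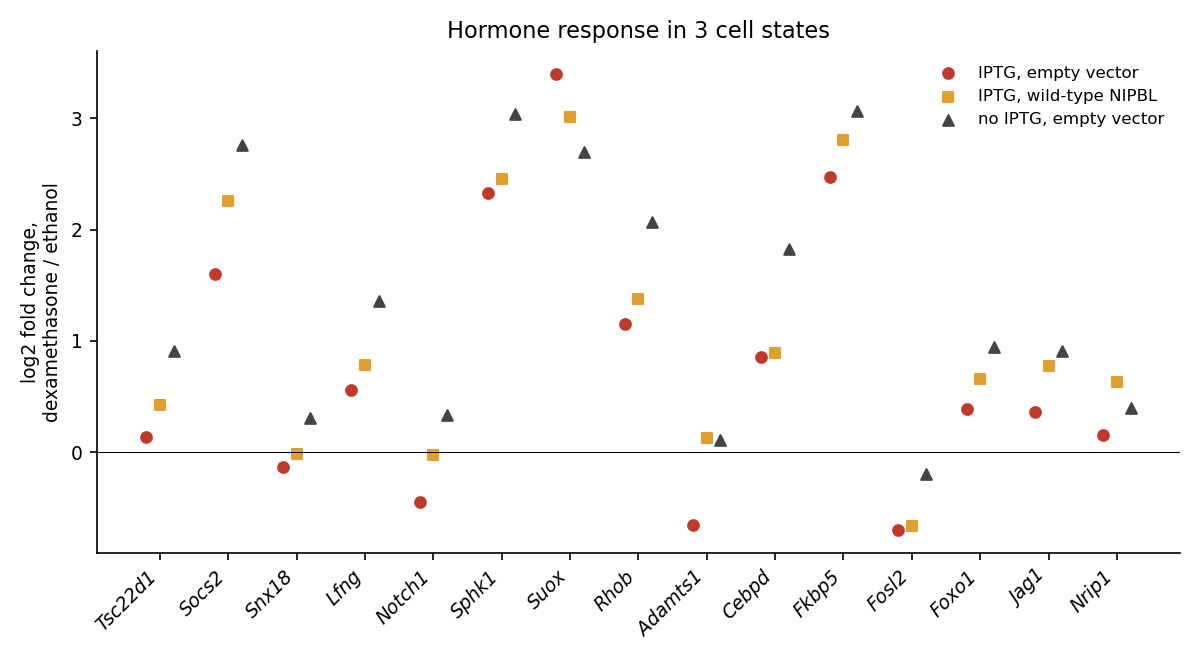
Log2 fold change of dexamethasone over ethanol in IPTG empty-vector cells (circles), IPTG cells with wild-type NIPBL (squares) and empty-vector cells without IPTG (triangles) for named genes with a called difference of response from 1 of the other states. The circle lies below the triangle for every gene shown except Suox, for which it lies 0.71 log2 units above.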

How the data were processed

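The authors deposited raw read counts per gene for 24 RNA-seq libraries. Per the labels' protocols, libraries were made with the Illumina Stranded Total RNA Prep with Ribo-Zero Plus. Per the submitters' processing notes, the tools were bcl2fastq 2.20, cutadapt 1.18, STAR 2.7.0f, featureCounts and Subread 2.0.3, with build mm10. The annotation release, strand setting and treatment of reads with several alignments are not given in the sources used here. All 55341 gene names are in GENCODE vM21, which supplied coordinates, length and GC content. Groups follow the titles. In 1 library outside the compared groups, of C1-C2 cells, title (ethanol) and treatment label (dexamethasone) disagree, and it was left out as an alternative.

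Differential expression came from edgeR 4.0.16 (quasi-likelihood, robust fit, TMM scaling; limma 3.58.1, R 4.3.3), in a model with 12 group means over all 24 libraries and 12 residual degrees of freedom. Its low-count filter left 16934 genes and took out 38407, and the median coefficient of biological variation came to 6.43%. Benjamini-Hochberg adjustment ran over all 16934 genes, with calls made at an adjusted p under 0.05. DESeq2 1.42.0, RLE factors, other filters, replicate blocks, a fit of the compared libraries alone, leaving out single libraries, and removal of a smooth GC and length trend were the alternatives. Promoters are RefSeq windows of GRCm38.p6. Counts were also simulated for the 16934 genes, with no GC trend and no other hormone change in the compared states. Changes were put in 50 genes per fold size, all with a mean of at least 1 CPM. Of these the test called 74% of 1.5-fold and 88% of 2-fold changes of the response, with 7.06% false calls. It called 60% and 80% of such differences from the response without IPTG, with 5.04% false calls. The rates do not cover genes of lower level.

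The genes named are, of called genes whose mean reached 1 CPM and whose groups do not overlap, the 20 that rose and the 20 that fell most, leaving out unnamed gene models and same-strand overlaps, up to 8 genes of smallest adjusted p per difference of responses, and members of 35 gene lists. Some genes that these rules pick are not reported here. The members, lists and rules were chosen with earlier results of these data known.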

Additional observations from a re-analysis of the deposited data

Results flagged for a closer look

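Several responses differed between IPTG empty-vector cells and another cell state in a direct test of the difference with edgeR, adjusted over all tested genes. Against the response without IPTG 29 genes passed, and against the response with wild-type NIPBL 2 genes passed. Named genes whose response was lower in IPTG cells than without IPTG were Tsc22d1 (log2 difference -0.77), Socs2 (-1.16), Snx18 (-0.44), Lfng (-0.80), Notch1 (-0.78), Sphk1 (-0.71), Rhob (-0.92), Adamts1 (-0.77), Cebpd (-0.97), Fkbp5 (-0.59), Fosl2 (-0.50), Foxo1 (-0.55) and Jag1 (-0.55). Suox had a larger response in IPTG cells (0.71). Against wild-type NIPBL the log2 differences were -0.47 for Nrip1 and -0.78 for Adamts1. IPTG, the hairpin and loss of Nipbl cannot be told apart in the first comparison.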

How the results depend on the processing

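With the GC and length trend removed 1816 genes were higher and 1585 lower. A strict filter on low counts tested only genes at 1 CPM or more in at least 12 libraries. Under it 271 genes were at least 2-fold higher and 129 lower, and 401 of the 817 calls of at least 2-fold were kept. Without each library in turn 4000 to 4362 genes were called. Differences from the response without IPTG numbered 62 with DESeq2, 85 with no filter, 47 with only the libraries compared, and 9 to 24 with single libraries left out. Differences from the response with wild-type NIPBL numbered 4 with DESeq2, 13 with no filter and 0 to 3 with single libraries left out. The causes were not tested.

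The labels do not say that replicate numbers mark a shared culture or day, and each group has 2 libraries, so the numbers were not taken as pairs. The deviations of same-numbered libraries correlated at 0.0452 between dexamethasone and ethanol in IPTG empty-vector cells. Within a treatment they correlated at 0.18 (dexamethasone) and 0.19 (ethanol) with those of cells without IPTG, and at 0.32 and 0.279 with those of wild-type NIPBL. With a replicate block 6166 genes were called, and the differences numbered 71 from no IPTG and 5 from wild-type NIPBL. With the replicate block within treatment they were 77 and 5, and with the replicate block and the trend removed 54 and 5.

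Over all 5510 calls, 364 had the other sign with the trend removed, and 365 with the replicate block as well. Of 326 named called genes, 248 kept their call with the trend removed, 73 lost it and 5 changed sign. Log2 changes with the trend removed, without and with the replicate block, were 0.086 and 0.084 for Clock, 0.02 and 0.02 for Pds5b, -0.018 and -0.018 for Rps15, -0.026 and -0.026 for Stub1, and 0.021 and 0.022 for Xiap. Genes with few counts limit precision, and of the 4234 genes of lowest mean level 6.42% were called higher and 3.35% lower.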

Other observations

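The short noncoding RNA Rn7s1, a copy of the signal recognition particle RNA, had 15.7 and 3.35 CPM in dexamethasone against 11.9 and 725 CPM in ethanol, so that 1 ethanol library stood apart, and the gene did not pass (edgeR adjusted p = 0.084). Gata3, a transcription factor of mammary luminal cells, had 74.0 and 72.0 CPM in dexamethasone against 31.1 and 32.9 CPM in ethanol in IPTG empty-vector cells. Without IPTG it had 72.05 and 75.7 CPM in dexamethasone against 24.75 and 24.93 CPM in ethanol. Its log2 change was smaller with IPTG than without (log2 difference -0.38, edgeR adjusted p = 0.0219). The dexamethasone levels of both states overlapped, and the ethanol levels were higher with IPTG. Sox4 had 44.8 and 41.1 CPM in dexamethasone against 44.6 and 50.6 CPM in ethanol with IPTG, and 147 and 106 CPM in dexamethasone against 34.2 and 38.0 CPM in ethanol without IPTG (log2 difference -1.96, edgeR adjusted p = 0.0109). Tcim had 82.2 and 102 CPM in dexamethasone against 25.4 and 22.5 CPM in ethanol with IPTG, and 29.9 and 31.6 CPM against 21.4 and 26.4 CPM without IPTG (log2 difference 1.58, edgeR adjusted p = 0.015). Rn7s1, Gata3, Sox4 and Tcim were singled out after their values were seen.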
